A study of Bos taurus with 32 samples.

Results

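The pituitary was set against the hypothalamus of the same 8 male Holstein calves, with 1 library of poly(A)-selected RNA per tissue and calf. These 16 libraries, 8 from the pituitary and 8 from the hypothalamus, are those of 32 in the series that carry either tissue in their names, and they were paired by the animal number of the calf. The other 16 came from the testicle and adrenal of the same animals. IVP calves 3208, 3209, 5833 and 5841 grew from embryos produced in vitro and were 98 to 103 days old. MOET calves 3213, 3217, 3218 and 5932 came from embryos conceived in vivo by insemination after ovarian superstimulation, and 3 of them were 102 to 104 days old, while calf 3213 was 144 days old. Embryos of both kinds were carried by recipient cows, and the calves were kept alike after birth. A library averages over all cell types of its sample, and in such bulk RNA fewer cells of a type and less RNA per cell cannot be told apart.

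The hypothalamus is the part of the brain that governs the pituitary. Its neurons release peptides into a short portal circulation, which carries them to the anterior pituitary, and other neurons send axons that end in the posterior pituitary. The anterior pituitary is a gland of several secretory cell types, each of which makes 1 or a few protein hormones in large amounts, such as growth hormone, prolactin, the gonadotropins, thyrotropin and corticotropin. The hypothalamus is nervous tissue, with neurons, astrocytes, myelin-forming cells and ependyma.

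The deposited counts are given by Ensembl gene ID, and 0 of 27607 IDs could be paired with a symbol in the tables used here. The labelled tissues were therefore not checked against their defining markers, and no hormone, peptide or cell type gene is named. The 4 genes given by ID below were those with the most extreme log2 fold changes in each direction, among genes past the 2-fold test that had a mean of at least 50 CPM (counts scaled by library size and TMM factor) in the higher tissue and the same direction in all 8 calves. Other genes are described by rank and level.

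Library totals were 20164948 to 23380330 counts in the pituitary and 20178727 to 22170502 in the hypothalamus, and 3 counts stood for 0.149 CPM in the smallest library. Both libraries of MOET calf 3213 stood apart. Over genes with at least 200 counts in each library of the group, the log2 ratio of calf 3213 to the geometric mean of the other 3 MOET calves had an interquartile range of 0.0077 in the pituitary, over 9545 genes, and 0.0087 in the hypothalamus, over 9003 genes. Counting error alone would give 0.0762 and 0.0674. In the pituitary of calf 3213, 88.6% of these genes lay within 1% of the median ratio, and in its hypothalamus 82.6%. In the other 14 libraries the range was 1.57 to 7.83 times that of counting error, and 2.81% to 14.4% of genes lay that close. Separately counted libraries differ by at least counting error, so calf 3213 was not taken as an independent replicate of the other MOET calves. Its testicle and adrenal libraries showed the same, at 0.171 and 0.194 times counting error, and so did the adrenal library of IVP calf 5833, at 0.328. The main counts of calls and the main paired tests are given with all 8 calves and without calf 3213. Single values and ranges are of all 8 calves unless stated. So are the SE and adjusted p of single genes, which count calf 3213 as a replicate. Exact tests after thinning, with no pairing or without another calf also include calf 3213.

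Counts in the pituitary were gathered in far fewer genes than in the hypothalamus. The single most counted gene took 11.5% to 26.0% of the counts of a pituitary, with a median of 19.8%, against 2.88% to 3.84% and a median of 3.26% in the hypothalamus. The 10 most counted genes of each library held 27.4% to 40.9% of pituitary counts, with a median of 34.6%, and 12.5% to 19.1% of hypothalamus counts, with a median of 16.0%. The lowest pituitary stood above the highest hypothalamus. The share was higher in the pituitary of 8 of 8 calves, by 17.9 ± 3.99 percentage points (SD, n = 8), and the two-sided exact permutation test by sign flips within calves gave p = 0.00781, the smallest that 8 pairs allow. Without calf 3213 the difference was 18.1 ± 4.30 points, with 7 of 7 calves in that direction and the exact p at its smallest for 7 pairs, 0.0156.

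The 100 most counted genes held 38.1% to 50.3% of pituitary counts, with a median of 44.2%, and 25.7% to 34.1% of hypothalamus counts, with a median of 29.9%. The difference was 13.5 ± 3.63 points (SD, n = 8, exact permutation p = 0.00781), and 13.6 ± 3.88 points without calf 3213 (exact permutation p = 0.0156). The smallest set of genes that held 50% of all counts was 96 to 468 genes in the pituitary, with a median of 250 genes, and 474 to 849 genes in the hypothalamus, with a median of 654.5. Without calf 3213 the medians were 253 and 657 genes. The number of genes at 1 CPM or above was closer: 14290 to 14895 in the pituitary, with a median of 14522.5, and 14111 to 15302 in the hypothalamus, with a median of 14853. These ranges overlapped, the pituitary was higher in 2 of 8 calves, and the exact permutation test gave p = 0.0938. Without calf 3213 the pituitary was higher in 1 of 7 calves, with the same exact permutation p. With each library thinned to the smallest total and 1 count taken as detection, the pituitary had 192 fewer genes on average and the exact permutation p was 0.0313. Leaving out calf 3218 also brought the exact permutation p to 0.0313, with 273 fewer genes.

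**Figure D1:**
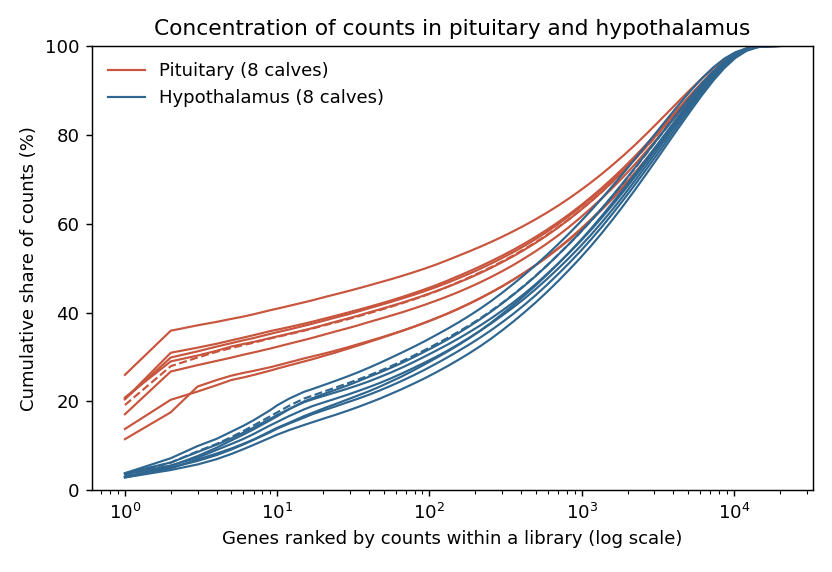
Cumulative share of a library's counts (%) against the number of genes, ranked by counts within each library (log scale); each line is 1 library, red for the 8 pituitaries and blue for the 8 hypothalami, and dashed lines are calf 3213. The red lines start at 11.5% to 26.0% with the first gene and lie above all blue lines up to the 100th gene, where they reach 38.1% to 50.3% against 25.7% to 34.1%.

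A pair of genes held most of the counts of the pituitary's 10 most counted. ENSBTAG00000015274 was the most counted gene of each pituitary, with 105033 CPM in the lowest, a median of 205478 CPM and 305919 CPM in the highest pituitary, against 8.74, 100.4 and 476 CPM in the hypothalamus. ENSBTAG00000017220 had 52953, 92445 and 117066 CPM in the pituitary, as lowest, median and highest, against 4.59, 42.2 and 184 CPM in the hypothalamus. For both genes, which were chosen by fold change, every pituitary lay far above every hypothalamus. MOET calf 5932 had the lowest pituitary level and the highest hypothalamus level of both. The fitted log2 fold change, pituitary over hypothalamus, was 11.30 (SE 0.85, edgeR adjusted p = 6.56e-07) for ENSBTAG00000015274 and 11.33 (SE 0.81, edgeR adjusted p = 4.64e-07) for ENSBTAG00000017220. When each calf was left out in turn it stayed between 10.97 and 11.74 for ENSBTAG00000015274 and between 11.00 and 11.75 for ENSBTAG00000017220.

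Both genes together took 17.3% to 35.9% of pituitary counts, with a median of 28.5%, and 0.00148% to 0.0687% of hypothalamus counts, with a median of 0.0156%. The pituitary share thus spanned 2.08-fold between calves, and the hypothalamus share 46.3-fold. The hypothalamus span was 16.8-fold without calf 5932, which was highest, and 29.1-fold without calf 5841, which was lowest. Within a calf, ENSBTAG00000015274 had 1.78 to 2.61 times the counts of ENSBTAG00000017220 in the pituitary and 1.90 to 2.73 times in the hypothalamus. The proportion of these genes to each other was thus similar in tissues whose levels differed by more than 1000-fold in summed counts: 1355-fold for ENSBTAG00000015274 (95% exact interval 1338 to 1372, counting error only) and 1509-fold for ENSBTAG00000017220 (1480 to 1540). Calf 5932 carried much of the hypothalamus sums: without it the ratios of summed counts were 2215 for ENSBTAG00000015274 and 2343 for ENSBTAG00000017220, while without calf 3213 they were 1380 and 1546.

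The genes read almost only in the hypothalamus were less abundant. ENSBTAG00000017044 had 0, 1.5 and 11 counts in the pituitary, as lowest, median and highest, against 8736, 14764.5 and 22827 in the hypothalamus. The pituitary sum of 29 counts, against 123973 in the hypothalamus, made it 4385 times lower in the pituitary per library total (95% exact interval 3053 to 6548, counting error only), and 3781 times lower without calf 3213. ENSBTAG00000017312 had 0 counts in 5 pituitaries and 1 in each of the other 3, against 438, 2054.5 and 3825 counts in the hypothalamus as lowest, median and highest. Its 3 pituitary counts against 16974 in the hypothalamus gave a level 5804 times lower, with a wide exact interval of 1986 to 28148 for counting error, and 5052 times lower without calf 3213. The fitted log2 fold changes were -11.98 (SE 0.38, edgeR adjusted p = 1.38e-09) for ENSBTAG00000017044 and -12.07 (SE 0.23, edgeR adjusted p = 1.23e-10) for ENSBTAG00000017312, and they depend on the prior count because the pituitary counts are near 0. In the hypothalamus itself ENSBTAG00000017312 varied 11.5-fold between calves, being lowest in IVP calf 3208 and highest in MOET calf 3218, and 5.87-fold without calf 3208.

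**Figure D2:**
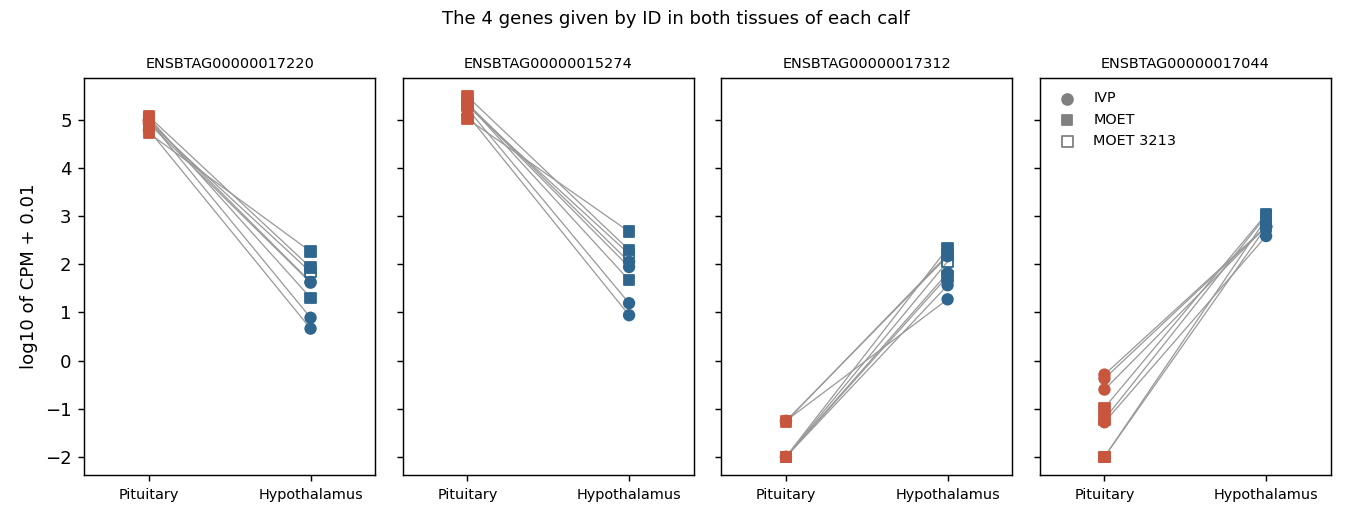
Level of the 4 genes given by ID (log10 of CPM + 0.01) in the pituitary (left, red) and hypothalamus (right, blue) of each calf; lines join the libraries of a calf, circles are IVP, squares MOET and open squares MOET calf 3213. The tissues do not overlap for any of the 4 genes, which follows from their choice by fold change, nor for 51.4% of the 17552 genes tested. Points at -2 are libraries with 0 counts.

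The other abundant genes followed the same division to a smaller degree. Of the 10 genes with the highest median share of pituitary counts, 7 were higher in the pituitary, with the smallest difference at a log2 fold change of 1.24, and 3 were lower. All 10 of the genes with the highest median share in the hypothalamus were lower in the pituitary, and 3 genes were in both sets. In 9 of these 10 the log2 fold change was between -1.23 and -2.40. The tenth, seventh in rank, took 7.83e-04% to 0.00416% of pituitary counts, against 0.843% to 1.88% of hypothalamus counts with a median of 1.15%, a log2 fold change of -9.62 (SE 0.46, edgeR adjusted p = 2.16e-08). The largest adjusted p among both sets of 10 genes in edgeR's test was 1.55e-04. Of the 100 genes with the highest median share in each tissue 40 were shared, and of the 1000 highest 580. Without calf 3213 these were 40 and 583, and 2 of the 10 highest were shared. These ranks compare counts, not counts per length, so a longer transcript ranks higher at the same number of molecules.

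Across the 17552 genes with enough counts to be tested, 14061 differed between the tissues, which is 80.1% of those tested, with 7085 (40.4%) higher and 6976 (39.7%) lower in the pituitary (edgeR's quasi-likelihood test with the calf as a block, Benjamini-Hochberg adjusted p under 0.05). Without calf 3213, 13419 differed, 6723 higher and 6696 lower. Because most genes differed, a test against a 2-fold change was used to find the larger differences. It called 5258 genes (30.0%), of which 2183 (12.4%) were higher and 3075 (17.5%) lower in the pituitary. Without calf 3213 it called 4915 genes, 1960 higher and 2955 lower, and 4903 of these were among the 5258. The median log2 fold change was 1.93 for genes called higher and -2.43 for genes called lower, against 0.02 over all genes tested. The direction was the same in all 8 calves for 2110 of the 2183 higher genes (96.7%) and 2986 of the 3075 lower genes (97.1%). Over all 17552 genes tested it was the same for 11823 (67.4%). Since the same calves chose the called genes, these shares are a description. Without calf 3213 the medians were 2.01 and -2.49, and 1918 of 1960 and 2879 of 2955 genes had the same direction in 7 calves. For 9019 of the 17552 genes, 51.4%, no pituitary overlapped any hypothalamus in CPM. Without calf 3213 this held for 9026 genes.

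Large differences were more often in favour of the hypothalamus. Of the genes called beyond 2-fold, 491 were more than 8-fold higher in the pituitary and 1153 more than 8-fold lower. Beyond 32-fold there were 124 higher and 467 lower genes, and beyond 256-fold 10 higher and 101 lower. Without calf 3213 these counts were 473 and 1140, 115 and 462, and 12 and 98. Lower genes outnumbered higher ones at each level, averaged over both tissues. Beyond 2-fold, 360 were called higher and 526 lower below 1 CPM, 812 (17.1%) and 945 (19.9%) between 1 and 10 CPM, and 887 (10.1%) and 1196 (13.6%) between 10 and 100 CPM. Between 100 and 1000 CPM the counts were 111 (7.0%) and 384 (24.1%), and of the 49 genes above 1000 CPM 13 were called higher and 24 lower. Without calf 3213 the counts of these 5 levels were 296 and 491, 735 and 918, 809 and 1164, 107 and 359, and 13 and 23.

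**Figure D3:**
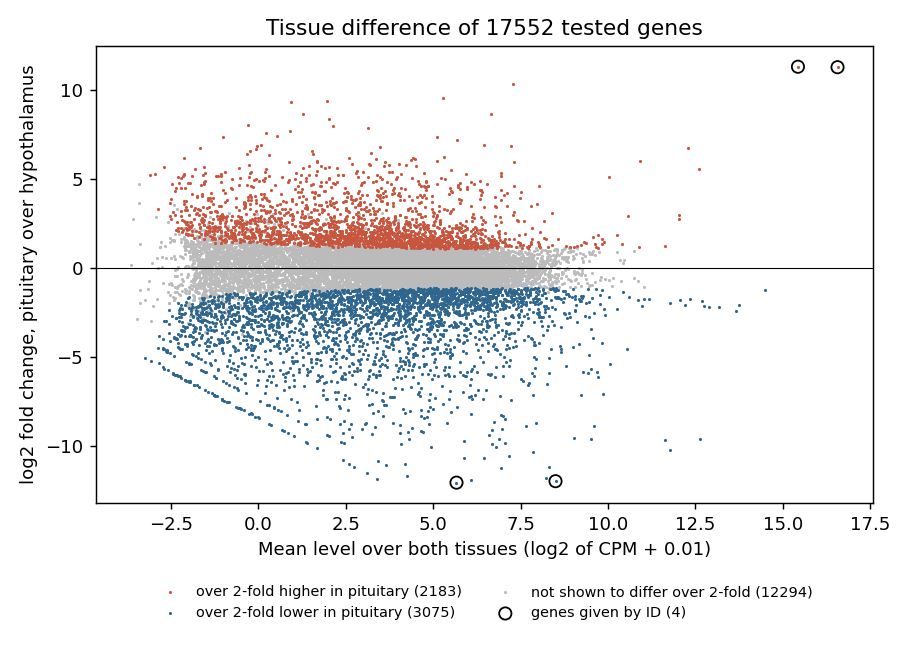
Log2 fold change, pituitary over hypothalamus, against the mean level over both tissues (log2 of CPM + 0.01) for the 17552 genes tested; red points are the 2183 genes over 2-fold higher and blue points the 3075 over 2-fold lower in the pituitary, and circles mark the 4 genes given by ID. Blue points reach further from 0 than red ones at most levels, and the pair of circled red points at the far right stands alone among abundant genes; the straight lower edge at the left is formed by genes with 0 or few pituitary counts.

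A few genes were read in a single tissue. Among the genes tested, 66 had 0 counts in all 8 pituitaries but were read in the hypothalamus. All 66 were called lower in the pituitary beyond 2-fold, against 17.5% of all genes tested. Of the 66 genes, 55 had counts in each of the 8 hypothalami. The most abundant averaged 21.2 CPM in the hypothalamus, with 287 counts in the lowest, a median of 439 and 842 in the highest library. Against a floor of 3 counts over the 8 pituitaries it was at least 1278-fold lower in the pituitary. In the other direction, 9 genes had counts in the pituitary and 0 in all 8 hypothalami. Of these 9 genes 8 were called higher, against 12.4% of all genes tested. The most abundant of them averaged 3.79 CPM in the pituitary, with 50, 81 and 112 counts as lowest, median and highest, and was at least 213-fold higher there on the same floor. Without calf 3213, 70 of the tested genes were at 0 in the other 7 pituitaries and 11 in the other 7 hypothalami. Genes chosen in this way had to pass the low-count filter through the tissue in which they were read. Their calls were thus largely fixed by the choice and are a description.

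The testicle and adrenal of the same calves placed these differences. Of the 17426 tested genes that also passed the filter over all 4 tissues, 2155 were called higher in the pituitary beyond 2-fold. In 867 of them, 40.2%, the mean level of the pituitary was also at least 2-fold above both testicle and adrenal, against 15.2% of all 17426 genes. In 584, 27.1%, the hypothalamus was at least 2-fold below both, against 9.2% of all. Of the 3045 genes called lower in the pituitary, the hypothalamus was at least 2-fold above both other tissues in 1817, 59.7%, against 19.2% of all. The pituitary was at least 2-fold below both in 761 of them, 25.0%, against 9.4% of all. Both patterns held at once for 61 of the higher and 221 of the lower genes, and neither for 765 and 688. Since the same pituitary and hypothalamus means chose the genes and placed them, the shares are a description. With calf 3213 and the adrenal of calf 5833 left out of the means, the 4 shares were 39.9%, 26.7%, 59.5% and 24.8%. In 1 fit of all 32 libraries over 18463 genes, the 2-fold test called 5092 genes (27.6%) between pituitary and hypothalamus. It called 5962 (32.3%) between pituitary and adrenal, 6001 (32.5%) between pituitary and testicle, 6325 (34.3%) between hypothalamus and adrenal, 7104 (38.5%) between hypothalamus and testicle, and 4804 (26.0%) between testicle and adrenal. Without calf 3213 and the adrenal of calf 5833 the 6 counts were 4785, 5486, 5795, 5979, 6839 and 4351 of 18423 genes, in the same order. These counts share libraries and were not tested against each other.

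Genes that were more than 8-fold higher in 1 tissue and had a mean of at least 50 CPM there were summed to follow each tissue's most typical RNA in the other. There were 85 such pituitary-high genes and 308 hypothalamus-high genes, and these values describe the genes by the contrast that chose them. The pituitary-high genes took 24.6% to 38.5% of pituitary counts, with a median of 32.1%, and 0.0672% to 0.544% of hypothalamus counts, with a median of 0.129%. The hypothalamus-high genes took 0.300% to 0.426% of pituitary counts, with a median of 0.324%, and 9.82% to 12.9% of hypothalamus counts, with a median of 10.6%. Hypothalamus-high RNA in the pituitary thus varied 1.42-fold between calves, and pituitary-high RNA in the hypothalamus 8.09-fold. Without calf 5833 these ranges were 1.39-fold for hypothalamus-high RNA in the pituitary and 3.32-fold for pituitary-high RNA in the hypothalamus. Calf 3213 was neither lowest nor highest in any of these shares.

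The calf with most pituitary-high RNA in its hypothalamus depended on the gene. For the pair of leading genes it was MOET calf 5932, at 0.0687% of counts, against 0.0250% in the next. For the other 83 genes together it was IVP calf 5833, at 0.529%, against 0.215% in the next, and 59 of the 83 were highest in the hypothalamus of calf 5833. How often this library was highest over all genes was not counted, so the 59 may not be particular to these genes. Among the hypothalami it had the lowest share of counts in the 100 most counted genes, 25.7%. It also had the most genes at 1 CPM or above, 15302. A single gene, the fourth in rank in the pituitary, took 0.450% to 1.86% of pituitary counts. It made up 0.262% of the counts of the hypothalamus of calf 5833, against 9.02e-04% to 0.0779% in the other 7 hypothalami. The contrast without calf 5833 called 5293 genes beyond 2-fold, and 5105 of the 5258 were among them.

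**Figure D4:**
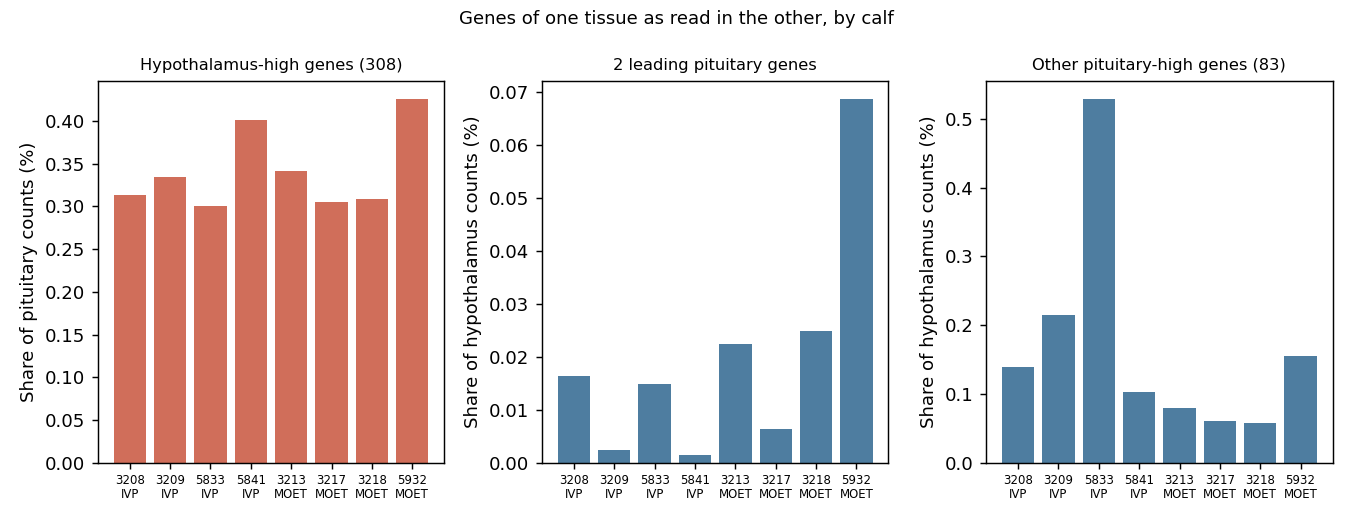
Share of counts (%) by calf, IVP calves left of MOET calves, of the 308 hypothalamus-high genes in the pituitary (left), and of the pair of leading pituitary genes and the other 83 pituitary-high genes in the hypothalamus (middle and right); bars start at 0 and each is 1 library. The left bars lie between 0.300% and 0.426%, the leading pair was highest in the hypothalamus of calf 5932 (0.0687%), and the other 83 genes in that of calf 5833 (0.529%).

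Calves differed less from each other in the pituitary than in the hypothalamus. The mean absolute deviation of a library's log2 CPM from the mean of its tissue and embryo origin was 0.145 to 0.230 in the pituitary, with a median of 0.166, and 0.197 to 0.354 in the hypothalamus, with a median of 0.254, over the 7 calves other than 3213, with the origin means taken without it. It was lower in the pituitary of 7 of 7 calves, by 0.0968 ± 0.0506 (SD, n = 7), where the exact permutation test by sign flips, two-sided, gave p = 0.0156, the smallest for 7 pairs. With calf 3213 included, the difference was 0.0847 ± 0.0579 over 8 calves, lower in the pituitary in 8 of 8 (exact permutation p = 0.00781). Calf 3213 itself had 0.0395 in the pituitary and 0.0410 in the hypothalamus, the lowest of each tissue. With no pairing by calf, the exact permutation test over the 16 libraries gave p = 0.0542. Without calf 3209, and with calf 3213 kept, the difference was 0.0551. Each value is taken from a mean that the calves of an origin share. The differences are therefore not independent of each other, and these p values are approximate.

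The smaller spread was found over most genes. The median SD of a gene between calves within its origin was 0.154 on the log2 scale in the pituitary and 0.275 in the hypothalamus, and 79.0% of the 17552 genes were more variable in the hypothalamus. Without calf 3213 the medians were 0.169 and 0.301 and the share 79.2%. Among the 4308 genes with a mean above 5 log2 CPM in both tissues, where counting error is small, the medians were 0.083 and 0.166 and the share 86.9%, and without calf 3213 they were 0.091, 0.181 and 86.9%.

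**Figure D5:**
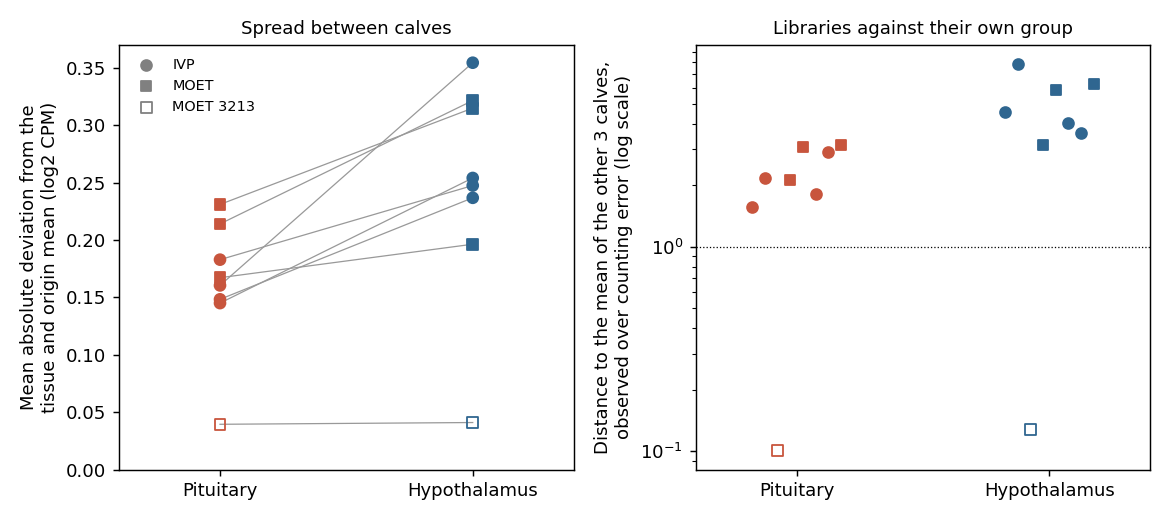
Left, mean absolute deviation of each library from the mean of its tissue and origin over all 8 calves (log2 CPM), with pituitary left of hypothalamus and lines joining the libraries of a calf; right, interquartile range of the log2 ratio to the mean of the other 3 calves of the group, divided by that from counting error (log scale, dotted line at 1). Circles are IVP, squares MOET, and the open squares of calf 3213 lie at 0.0395 and 0.0410 on the left and at 0.101 and 0.128 on the right, below all others.

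The range between calves was also described for the genes typical of each tissue. The highest of the 8 pituitaries was 1.66 times the lowest at the median of the 85 pituitary-high genes, and 1.25 times at the median of the other 3457 genes of at least 50 CPM in the pituitary. In the hypothalamus the values were 2.00 for the 308 hypothalamus-high genes and 1.49 for the other 3633 genes of that level. More than 4-fold between calves was reached by 7 of the 85 pituitary-high genes (8.24%) and 23 of the 308 hypothalamus-high genes (7.47%), against 0.26% and 1.02% of those other genes. These medians and counts were the same without calf 3213. This follows from its place at the mean of the other MOET calves, where it is seldom highest or lowest, and is no check of the ranges. The difference between the sets of genes was not tested.

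A single abundant pituitary gene had a wider range than the other abundant ones. Of the 43 genes with a mean of at least 1000 CPM in the pituitary, the eighth by median share varied 26.9-fold between calves, while the next varied 4.20-fold and the median gene 1.41-fold. It had 2053 CPM in the lowest pituitary, a median of 4752 and 55207 CPM in the highest, that of MOET calf 5932, where it took 6.04% of all counts. The pituitary of calf 3213 came next, at 19924 CPM, and the third highest had 5966 CPM. The range was 9.70-fold without calf 5932 and 2.91-fold without calves 5932 and 3213, and the median without calf 3213 was 3919 CPM. In the hypothalamus the gene had 51.4, 117 and 515 CPM as lowest, median and highest, and the highest was again calf 5932, so that the log2 ratio of pituitary to hypothalamus lay between 4.70 and 6.75 in the 8 calves. The fitted log2 fold change was 5.60 (SE 0.27, edgeR adjusted p = 2.34e-08). Of the 69 genes of that level in the hypothalamus, the most variable differed 4.20-fold between calves.

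Whether the tissue difference depended on how the embryo was made was asked with the interaction of tissue and embryo origin. It was called for 15 of 17552 genes (0.0855%), 11 with a higher and 4 with a lower ratio of pituitary to hypothalamus in IVP calves (edgeR's quasi-likelihood test, adjusted p under 0.05), while 2751 had an unadjusted p under 0.05. Without calf 3213, and likewise without calf 3208, 0 genes were called in the same test (1600 and 2110 at an unadjusted p under 0.05), against 642 without calf 3209 and 102 without calf 5841. Without calf 5833, 3217 or 3218 it called 4, 5 and 2, and without calf 5932 19. Calls for single genes were thus not stable to the choice of calves. The gene first in rank by p shared its adjusted p in edgeR's test, 0.0105, with the gene next in rank. The first gene had 218 to 315 CPM in IVP and 152 to 242 CPM in MOET pituitaries, which overlap. It had 91.6 to 137 CPM in IVP and 144 to 196 CPM in MOET hypothalami, which do not. Its mean log2 ratio of pituitary to hypothalamus was 1.21 ± 0.04 in IVP and 0.09 ± 0.21 in MOET calves (SD, n = 4 IVP and, without calf 3213, n = 3 MOET). The adjusted p comes from the fit with calf 3213, and without that calf the smallest adjusted p of any gene in edgeR's test was 0.121.

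Tissue differences were also called within each origin. With IVP calves alone the 2-fold test called 3867 and with MOET calves alone 5332 of the 16704 genes tested in both. A shared set of 3532 genes was 91.3% of the IVP and 66.2% of the MOET calls, and all 3532 had the same direction in both. Without calf 3213, 3281 genes were called in both origins, 85.2% of the IVP and 75.2% of the MOET calls, all in the same direction. The 3 MOET calves other than 3213 gave 4421 calls over all their tested genes, against 5430 with calf 3213, while the 4 IVP calves gave 3986.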

How the data were processed

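The authors deposited raw counts per gene for 27607 Ensembl IDs in 32 libraries. Per the labels' protocols, poly(A) RNA of integrity number above 7 was sequenced paired-end without strand information, and SOAPnuke removed adapters and poor reads. STAR 2.7, HTSeq and the bosTau9 build are named in the submitters' processing notes. The annotation and the settings of HTSeq were not given in the sources used here. Reads of overlapping genes on opposite strands, and of near-identical genes, may therefore be shared.

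Counts were filtered with edgeR 4.0.16 filterByExpr (minimum count 10, total 15), scaled with TMM and tested with glmQLFit and glmQLFTest (robust), with calf as a block, since a number marks 1 animal; glmTreat tested against 2-fold. Benjamini-Hochberg adjustment was applied, with a threshold of 0.05, and the SE was the log2 fold change over the root of F. Deviations from the group means correlated between both tissues of a calf with r from -0.08 to 0.24, and 4 of 8 pituitaries matched the hypothalamus of their own calf best. Calf 3213 was among these 4, and its hypothalamus was also the best match for the pituitaries of calves 5833 and 5932. Within groups, 24 pairs of libraries differed more than sampling noise, at a chi-square of 5.85 to 203 per degree of freedom. Single values per library were tested with exact sign-flip permutations. Log2 CPM used a prior count of 2. The scripts were tested on simulated data. Alternatives used DESeq2 1.42.0 and limma 3.58.1 (R 4.3.3), other scalings and filters, and fewer calves; MOET calves without calf 3213, and the fit of all tissues without it and the adrenal of calf 5833, were added after the data were seen.

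The comparison and lists were chosen with earlier results of these data known. Gene lists, cell type markers and the mitochondrial share need symbols and were not analysed here, so at most 2 IDs per direction are given, those of largest absolute log2 fold change past the 2-fold test, with at least 50 CPM in the higher tissue and the same direction in 8 calves; other single genes were picked after their values were seen.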

Additional observations from a re-analysis of the deposited data

Results flagged for a closer look

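In 36 sets of 8 values, 1 per calf, 9 single values lay far from the other 7. Chance gives about 1 in 20 independent sets, but these sets share genes, and 2 of the 9 values are of a gene chosen for its range between calves, so the count is not a comparison with chance. The mean deviation of the pituitary of calf 3213 from its group mean, 0.0395, lay far below the other pituitaries. In the pituitary of calf 5932 the 83 pituitary-high genes other than the leading pair took 8.05% of counts against 4.24% in the next calf, and the most variable abundant pituitary gene had 55207 CPM there against 19924 CPM. That gene is among the 83 and alone took 6.04% of the counts of this pituitary. The high share of the set there was thus mostly this gene and does not describe the 83 genes in general. In the hypothalamus of the same calf that gene had 515 CPM against 231 CPM in the next, and the leading pituitary genes were also far above the other 7: ENSBTAG00000017220 had 184 CPM against 85.9 CPM in the next calf, ENSBTAG00000015274 had 476 CPM against 198 CPM, and their joint share was 0.0687% against 0.0250%. In the hypothalamus of calf 5833 all 85 pituitary-high genes took 0.544% of counts against 0.223% in the next calf, and the 83 without the leading pair 0.529% against 0.215%.

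The ratio of pituitary to hypothalamus differed between IVP and MOET calves for 15 genes by the test of the interaction, and for 0 genes without calf 3213.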

How the results depend on the processing

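The 14061 genes that differed ranged from 11326 to 14584 over 18 alternatives, and the 5258 beyond 2-fold from 3986 to 5472 (4915 to 5333 when 1 calf was left out). No gene called beyond 2-fold changed direction in any of them, and without the replicate block 5255 were called, 5125 of them shared. The median log2 fold change over all genes stayed between 0.0001 and 0.05. The 4 genes given by ID kept direction and call in all 18 alternatives. The interaction with origin was called for 15 genes, but for 536 with the DESeq2 Wald test, 320 with all 32 libraries, 53 with no replicate block, and 0 to 642 when 1 calf was left out; the cause was not tested. The difference in genes detected, -216 on average, was -273 to -132 when 1 calf was left out and -192 after thinning (exact permutation p = 0.0313). The spread between calves differed by -0.0847, with exact permutation p = 0.0542 with no replicate block. Without calf 3209 the spread differed by -0.0551. Its p values are approximate, since the calves of an origin share a mean. Dropping any 1 calf left the shares of the 10 and 100 most counted genes and the spread past 0.05, with exact permutation p of 0.0156 at most. The number of calves and the standing of calf 3213 limit precision, and by depth a gene at 0 in a library may have up to 0.149 CPM.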

Other observations

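The profile of log2 ratios, pituitary over hypothalamus, correlated across 17552 genes between calves with Pearson's r of 0.82 to 0.93 in the 21 pairs without calf 3213, and of 0.93 to 0.97 between calf 3213 and the other 3 MOET calves. Genes are not independent replicates, and these values are a description.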
